A study of Mus musculus with 2 samples.

Results

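The genes described here are 37 mouse genes of the replication checkpoint, homologous recombination and the Fanconi anaemia pathway, chosen by symbol from a list of names. These genes and the comparison lists below were chosen with earlier results of these data known. Their counts are a description and not independent support. Each of the 37 matched 1 row of a table of 55468 gene rows. The table compares 2 libraries of total RNA from KPC2, a mouse pancreatic cancer cell line. The wild type library (n = 1) came from cells that received no drug. The gemcitabine-resistant library (n = 1) came from KPC2 cells treated for a long time with 260 ng/mL gemcitabine and still kept in it. Both were grown in the same serum-containing medium. Gemcitabine is a deoxycytidine analogue that stalls DNA synthesis once it is built into DNA. With 1 library per group there was no replicate error and no test between the conditions. Every difference below describes these 2 libraries, and the effect of drug in the medium cannot be told apart from that of the selected cell population. The labels do not say whether the resistant line is 1 clone. In bulk RNA, fewer cells making a transcript and less of it per cell cannot be told apart either.

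When a replication fork stalls, single-stranded DNA is coated by replication protein A, and the kinase ATR with its partner ATRIP is recruited to it. The 9-1-1 clamp and TOPBP1 activate ATR, and claspin hands the signal on to the kinase CHK1, which holds back CDC25A and with it entry into mitosis. Collapsed forks are repaired by homologous recombination, in which BRCA1, PALB2 and BRCA2 help to start strand exchange on resected DNA. The Fanconi anaemia proteins act on crosslinked and stalled forks and feed into the same repair.

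Values were taken to be FPKM, fragments scaled by transcript length and by sequencing depth, to set genes and libraries side by side. This scaling alone does not make 2 libraries fully comparable, so 2 rescalings are among the alternatives given below. All 37 genes were at 1 FPKM or more in both libraries. Differences were taken as log2((resistant FPKM + 1)/(wild type FPKM + 1)), where a negative value means a lower level in resistant cells, and a value of 1 or more in size is called at least 2-fold. This scale understates differences of low genes. Low values of genes with a single transcript fell on whole-fragment steps. From these steps the 37 genes rested on a median of about 852 fragments (wild type) and 528 fragments (resistant). Xrcc3 had the fewest, about 107 and 59. Intervals of fold values are exact binomial (Clopper-Pearson) 95% intervals on these estimated fragments. They cover counting error only, not the spread between cultures, and depend on the transcript length taken.

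The 37 genes stood lower in resistant cells more often than higher. In all, 7 were at least 2-fold lower and none at least 2-fold higher, while the other 30 differed by less. A gene counted as measured if either library had it at 1 FPKM or above, and of all 12193 such genes 8.37% were at least 2-fold lower and 7.9% at least 2-fold higher. The median log2 ratio of the 37 genes was -0.38, beside 0.02 over all measured genes, and 26 of the 37 were below 0, beside 49.2% of all measured genes. The log2 ratios ran from -1.14 to 0.98. Counting error alone left 24 genes wholly below an FPKM ratio of 1 and 7 wholly above it, with 6 intervals that held 1. Of the 11806 measured genes whose annotated transcript was long enough for such an interval, 39.3% had one wholly below 1 and 39.9% wholly above. The 18 checkpoint genes and the 19 recombination and Fanconi genes had similar medians, -0.40 and -0.38, with 4 and 3 genes at least 2-fold lower.

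**Figure D1:**
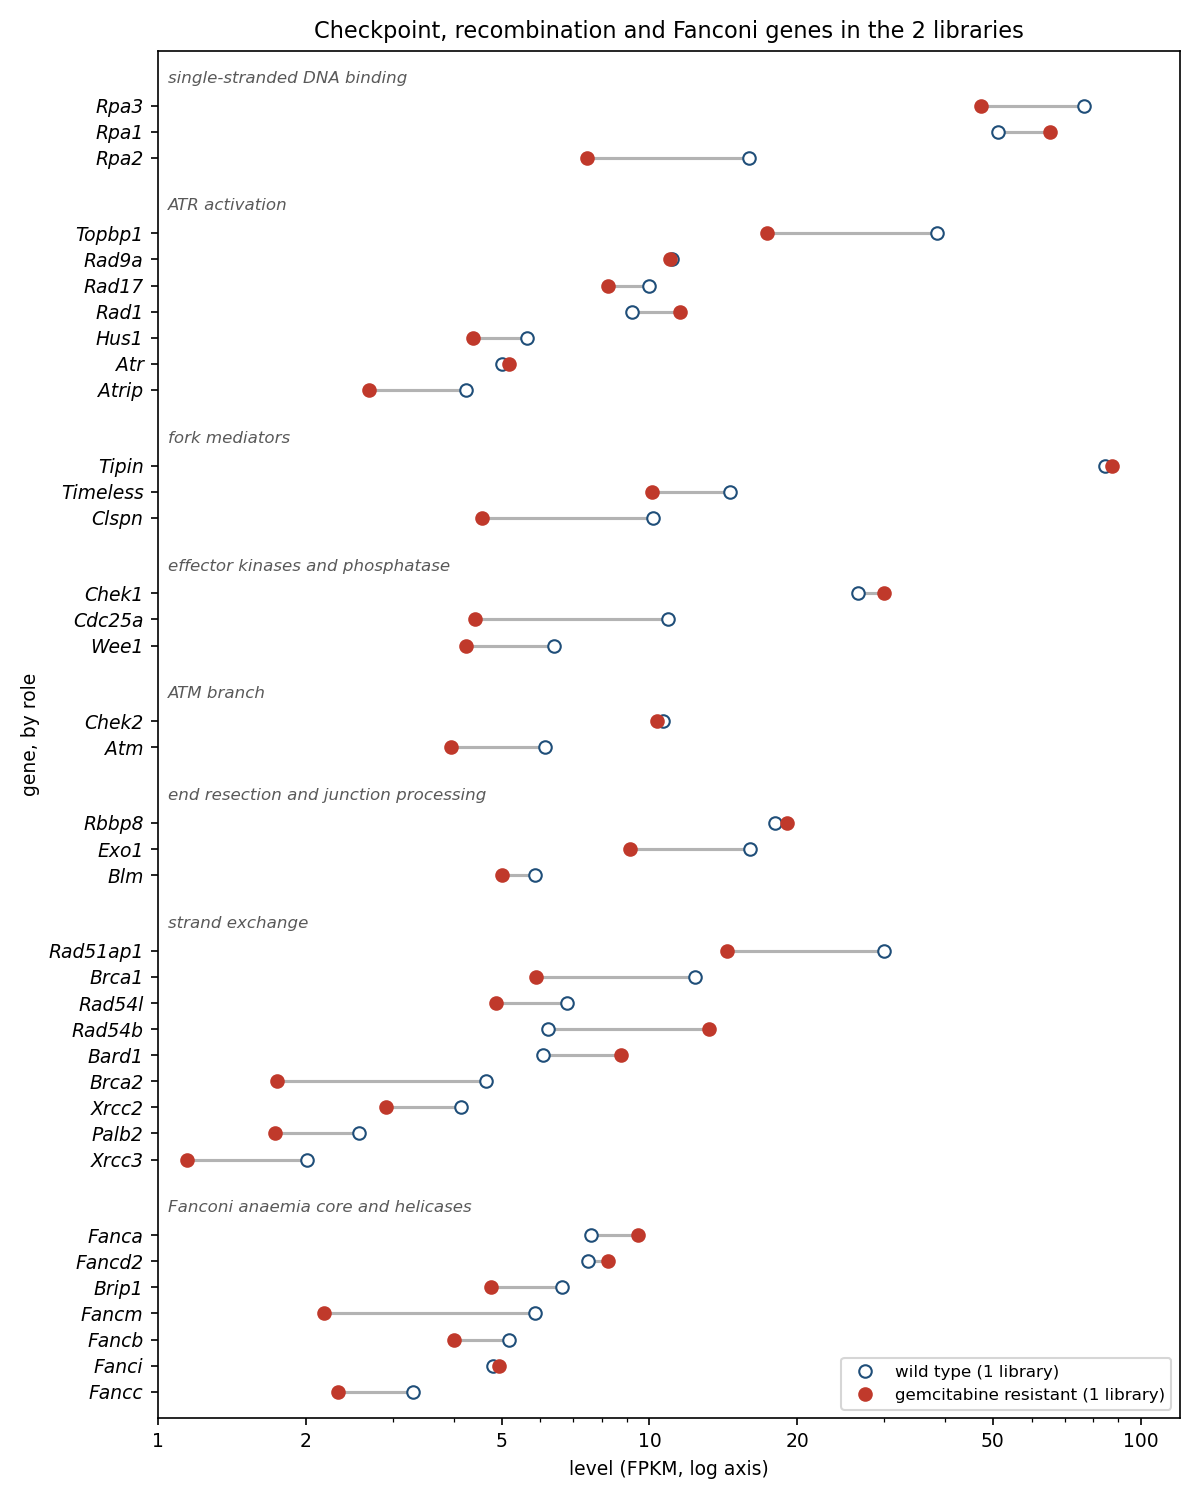
Levels of the 37 genes in FPKM (log axis), ordered by role. Open circles are the wild type library and filled circles the gemcitabine-resistant library, 1 library each, joined by a line. Tipin, Rpa3 and Rpa1 were the highest in both libraries and Xrcc3 the lowest, and the long lines of Brca2, Fancm, Cdc25a, Clspn and Topbp1 run to lower values in resistant cells, while that of Rad54b runs to a higher one.

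At the first step, single-stranded DNA binding, the 3 subunits of replication protein A differed in direction. Rpa1, the large DNA-binding subunit, stood at 51.2 FPKM in wild type and 65.4 FPKM in resistant cells, a log2 ratio of 0.35. Rpa2, the subunit that the checkpoint kinases phosphorylate, stood at 15.98 and 7.46 FPKM, which is 2.14-fold lower in resistant cells (interval 1.85 to 2.47). Rpa3, the small subunit, stood at 76.6 and 47.2 FPKM, a log2 ratio of -0.69. The 3 subunits form 1 heterotrimer, so their RNA levels can be set side by side. Rpa1 made up 35.6% of the summed FPKM of the 3 genes in wild type and 54.5% in resistant cells, and Rpa2 made up 11.1% and 6.22%.

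Among the 7 genes that recruit and activate ATR, only Topbp1 differed by 2-fold or more. Topbp1, whose product switches on ATR, stood at 38.5 FPKM in wild type and 17.4 FPKM in resistant cells. Its level was 2.22-fold lower in resistant cells (interval 2.10 to 2.34), on about 4596 and 2007 fragments. Atr itself was nearly level, at 5.00 FPKM in wild type and 5.17 FPKM in resistant cells, and the interval of its ratio held 1. Its partner Atrip stood at 4.23 and 2.69 FPKM, a log2 ratio of -0.50.

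The 9-1-1 clamp genes differed little. Rad9a stood at 11.10 FPKM in wild type and 11.02 FPKM in resistant cells, Rad1 at 9.20 and 11.5 FPKM, and Hus1 at 5.64 and 4.38 FPKM. Rad17, which loads the clamp, stood at 9.95 and 8.22 FPKM. Their log2 ratios lay between -0.30 for Hus1 and 0.30 for Rad1, so the trigger gene Topbp1 differed by more than any clamp or kinase gene of this group.

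Of the fork mediators, which travel with the fork and pass the signal to CHK1, Clspn was at least 2-fold lower. Clspn, the gene of claspin, stood at 10.2 FPKM in wild type and 4.56 FPKM in resistant cells, 2.23-fold lower (interval 2.01 to 2.48). Timeless stood at 14.6 and 10.1 FPKM, a log2 ratio of -0.49. Tipin, whose product pairs with that of Timeless, was the most abundant of the 37 genes and close to level, at 84.6 and 87.2 FPKM. Chek1, the effector kinase gene, differed little, at 26.6 FPKM in wild type and 30.02 FPKM in resistant cells. Its log2 ratio was 0.17, and 0.08 when the 2 libraries were scaled to the same upper quartile.

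Cdc25a, the phosphatase that CHK1 marks for degradation, had the lowest log2 ratio of the 37 genes at a pseudocount of 1, -1.14. The plain FPKM ratios of Fancm and Brca2, 0.37 each, lay below the 0.41 of Cdc25a, and at a pseudocount of 5 Topbp1 was lowest, at -0.96. Cdc25a stood at 10.9 FPKM in wild type and 4.42 FPKM in resistant cells, 2.47-fold lower (interval 2.18 to 2.80). Wee1, the kinase that opposes CDC25 phosphatases, stood at 6.39 and 4.24 FPKM, a log2 ratio of -0.50. The level of Chek1 was 2.44 times that of Cdc25a in the wild type and 6.79 times in the resistant library.

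In the branch that answers double-strand breaks, Atm stood at 6.12 FPKM in wild type and 3.95 FPKM in resistant cells, a log2 ratio of -0.52. Its effector kinase gene Chek2 was level, at 10.7 and 10.3 FPKM. Both apical kinase genes were low in both libraries, and the level of Atm relative to Atr was 1.22 in wild type and 0.76 in resistant cells.

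The genes of end resection and junction processing stayed within 2-fold. Rbbp8, which starts resection, stood at 18.0 FPKM in wild type and 19.1 FPKM in resistant cells. Exo1, the long-range resection nuclease, stood at 16.02 and 9.12 FPKM, a log2 ratio of -0.75. Blm, a helicase of resection and of junction dissolution, stood at 5.85 and 5.01 FPKM.

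The 9 strand exchange genes held the widest spread, from -1.04 to 0.98. Brca2, which mediates strand exchange, stood at 4.65 FPKM in wild type and 1.74 FPKM in resistant cells, 2.67-fold lower (interval 2.39 to 2.996). Rad51ap1, which promotes joining of the paired strands, stood at 29.996 and 14.4 FPKM, 2.09-fold lower (interval 1.91 to 2.29). Brca1, which works upstream of both, stood at 12.4 and 5.87 FPKM. Its log2 ratio of -0.96 fell short of the line, although its FPKM as such were 2.11-fold apart (interval 1.95 to 2.29).

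Other strand exchange genes were lower by less. Palb2, the bridge between BRCA1 and BRCA2, stood at 2.56 FPKM in wild type and 1.73 FPKM in resistant cells. Xrcc2 stood at 4.14 and 2.91 FPKM and Xrcc3 at 2.01 and 1.15 FPKM, both being genes of accessory factors of strand exchange. Rad54l, a motor protein that remodels DNA during strand exchange, stood at 6.80 and 4.88 FPKM, a log2 ratio of -0.41. These 4 genes had log2 ratios between -0.38 and -0.49.

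A pair of strand exchange genes stood apart from the others by being higher in resistant cells. Rad54b, the second gene of the RAD54 family, stood at 6.21 FPKM in wild type and 13.2 FPKM in resistant cells. Its FPKM were 2.13-fold apart (interval 1.89 to 2.41), and its log2 ratio of 0.98 was just short of the line. Bard1, the obligate partner of BRCA1, stood at 6.09 and 8.74 FPKM, a log2 ratio of 0.46.

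Among the 7 Fanconi genes of the 37, Fancm had the lowest ratio. Fancm, a helicase-like translocase that brings the core complex to stalled forks, stood at 5.85 FPKM in wild type and 2.18 FPKM in resistant cells, 2.68-fold lower (interval 2.38 to 3.02). The core complex genes were mixed. Fancb stood at 5.18 and 4.01 FPKM, Fancc at 3.30 and 2.32 FPKM, and Fanca at 7.61 and 9.47 FPKM. The value of Fanca is uncertain, because its locus in the table spans 4435 kb and is shared with 60 other measured rows.

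Downstream of the core, both genes of the ubiquitinated pair were near level. Fancd2 stood at 7.51 FPKM in wild type and 8.24 FPKM in resistant cells, and Fanci at 4.81 and 4.95 FPKM. Brip1, a helicase that binds BRCA1, stood at 6.65 and 4.77 FPKM, a log2 ratio of -0.41.

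**Figure D2:**
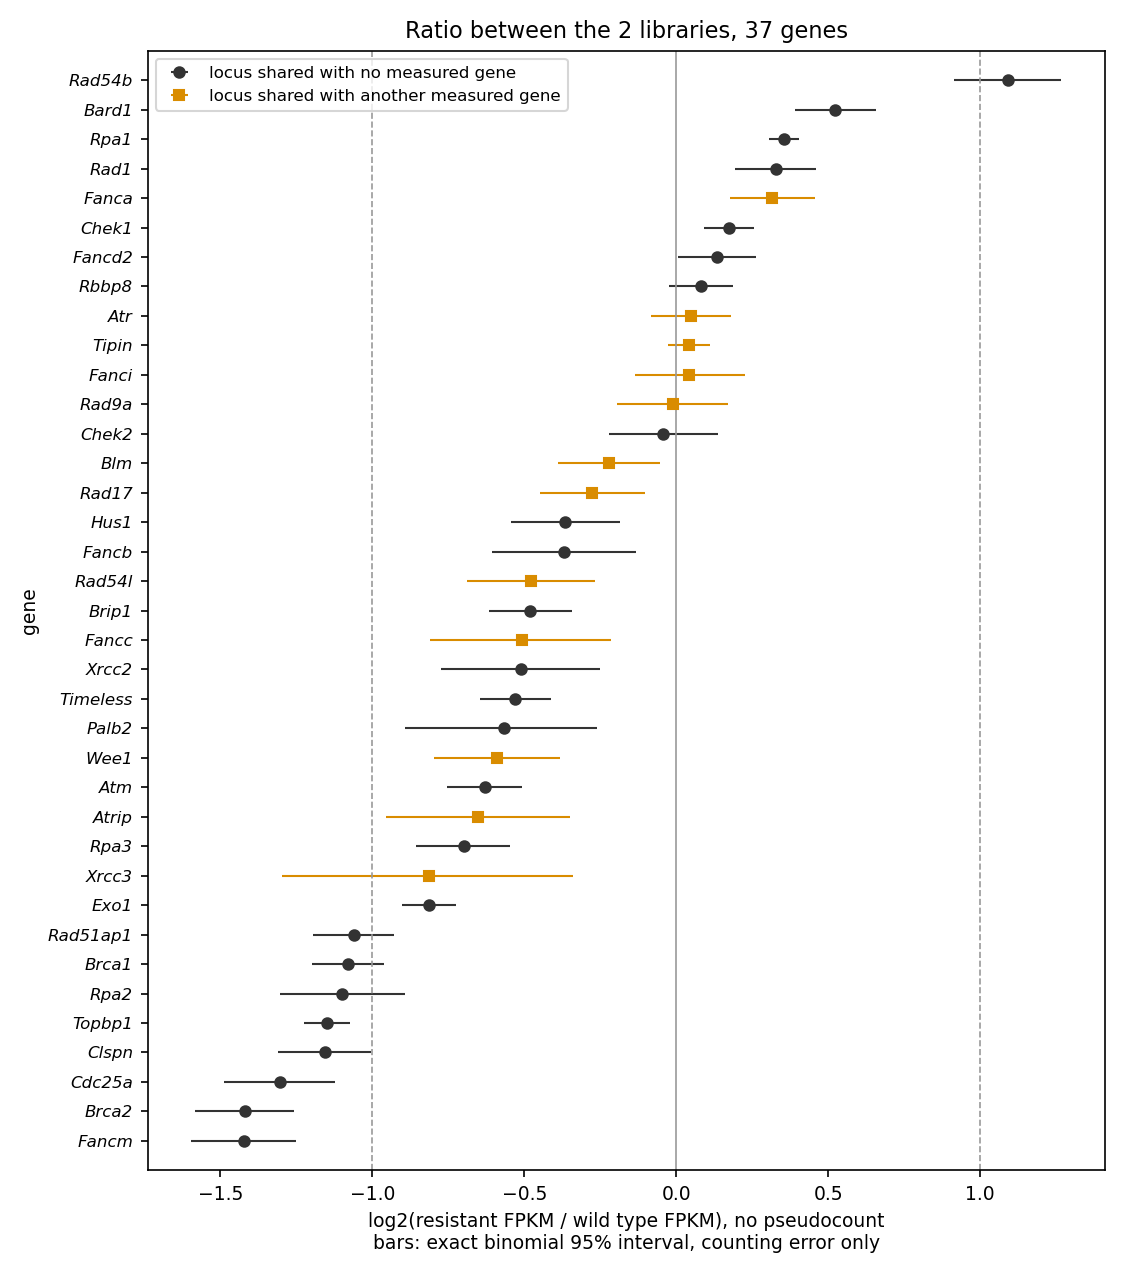
Ratio of resistant to wild type FPKM for each of the 37 genes on a log2 scale without a pseudocount, sorted. Bars are exact binomial 95% intervals for counting error only. Squares mark the 12 genes whose locus in the table is shared with another measured gene. Without a pseudocount 8 genes lay at or below the lower dashed line (2-fold) and Rad54b alone lay above the upper one. All 8 had a locus of their own.

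Several of the calls sat close to the line. Brca2, Rad51ap1, Clspn, Rpa2, Brca1 and Rad54b had log2 ratios within 0.1 of it, so the pseudocount decided Brca1 and Rad54b. With a pseudocount of 0.1 the counts were 8 lower and 1 higher, beside 12.7% and 10.8% of all measured genes. With a pseudocount of 5, which weighs down genes at a few FPKM, none of the 37 genes differed by 2-fold in either direction, beside 2.44% lower and 3.51% higher. The log2 ratios of Fanci, Atr, Tipin and Rbbp8 were so near 0 that their sign changed under other scalings. Of the 37 genes, 12 share their locus with another measured row, and how fragments of overlapping genes were split is not stated. None of the 7 lower genes was among these 12, so among the 25 genes with a locus of their own the lower count was still 7.

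Pairs of genes whose products bind each other, act in 1 step or belong to 1 family, chosen with their values known, were compared as level ratios within each library. Brca1 stood at 2.04 times the level of Bard1 in wild type and 0.67 times in resistant cells, so the order of this heterodimer's genes reversed. Rad54l and Rad54b were close in the wild type, at a ratio of 1.09, and stood at 0.37 in the resistant library. Rpa1 was at 3.20 times the level of Rpa2 in wild type and at 8.76 times in resistant cells. Topbp1 was at 7.70 times the level of Atr in the wild type and at 3.36 times in the resistant library.

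Other pairs moved less against each other. The ratio of Fancd2 to Fanci was 1.56 in wild type and 1.67 in resistant cells, and that of Rad9a to Rad1 was 1.21 and 0.96. Atr stood at 1.18 and 1.92 times the level of Atrip. Timeless was far below Tipin in both, at 0.17 and 0.12 times its level. Brca2 stood at 1.82 times the level of Palb2 in wild type and at 1.01 times in resistant cells.

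**Figure D3:**
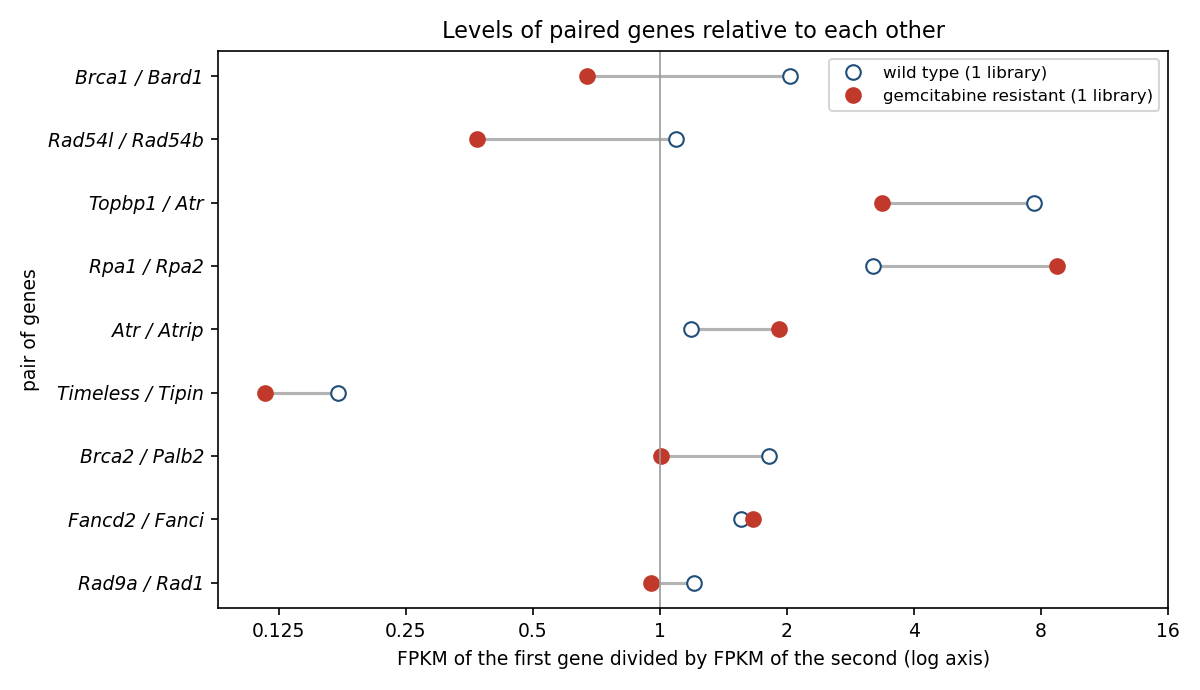
Level of the first gene of a pair divided by that of the second, from FPKM, in the wild type library (open circles) and the resistant library (filled circles), 1 library each, on a log axis. The vertical line marks equal levels. Brca1 over Bard1 and Rad54l over Rad54b cross it from above to below. Rad9a over Rad1 goes from 1.21 in wild type to 0.96 in resistant cells, close to the line, and Fancd2 over Fanci barely moves. These ratios were given no intervals.

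Of the 7 lower genes, 2 lie on chromosome 9 and 2 on chromosome 4, and the others on chromosomes 5, 6 and 12. By the GENCODE M21 annotation on GRCm38, Cdc25a (ENSMUSG00000032477) lies on chromosome 9 from 109875579 to 109893895. Topbp1 (ENSMUSG00000032555) lies on the same chromosome, from 103305215 to 103350428. Brca2 (ENSMUSG00000041147) lies on chromosome 5 from 150522630 to 150570329, Fancm (ENSMUSG00000055884) on chromosome 12 from 65075603 to 65132058, and Rad51ap1 (ENSMUSG00000030346) on chromosome 6 from 126923050 to 126939587. Clspn (ENSMUSG00000042489) and Rpa2 (ENSMUSG00000028884) both lie on chromosome 4, from 126556935 to 126593903 and from 132768332 to 132778752. Chromosome 9 holds 7 of the 37 genes, with log2 ratios from that of Cdc25a to that of Chek1 and a median of -0.50.

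The lower genes had somewhat longer transcripts and much the same base composition as the other genes. Their longest protein-coding transcripts had a median of 5027 bases, from 1813 for Rpa2 to 10724 for Brca2, beside 3774 bases for the other 30 genes and 2784 bases over all measured genes. Their median GC content was 46.4%, beside 46.2% for the other 30 and 50% over all measured genes. Across the 37 genes, the log2 ratio had a Spearman correlation of -0.08 with transcript length, -0.19 with GC content and -0.03 with the wild type level. The 37 genes are not independent replicates and share the same 2 libraries.

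Because genes of the checkpoint and of recombination are known targets of E2F transcription factors, their promoters were read for the E2F consensus in its 4 spelled-out forms, TTTCCCGC, TTTCGCGC, TTTGCCGC and TTTGGCGC, on both strands. No form is the reverse complement of another, so 1 position counts for 1 form. The windows are RefSeq's, on GRCm38.p6, from 250 bases before to 50 bases after a transcription start. Such windows existed for 29 of the 37 genes, 31 windows in all. Of these, 6 held a form (19.4%), 1 each for 6 genes, beside 2.26% of all 32851 windows and 4.17% of the 11168 windows of measured genes. Of the 7 lower genes, 4 held one (Brca2, Topbp1, Cdc25a and Clspn) and Rpa2, Rad51ap1 and Fancm held none of these letters in the window. Of the other 22 genes with a window, Bard1 and Chek2 held one, at log2 ratios of 0.46 and -0.04. A match is a description of the letters, not a bound site. Forms were not counted among all genes at least 2-fold lower. Whether a form has a part in the levels was not tested.

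The promoter stretches of these genes are shown to let the lower genes be set beside the 2 that were not lower. Each is the 250 bases before the start, 5′ to 3′ on the gene's strand, with the E2F form or its reverse complement in capitals. The lower genes come first: Brca2 (chr5:150522371-150522620, plus strand), Topbp1 (chr9:103305077-103305326, plus) and Cdc25a (chr9:109875329-109875578, plus). Bard1 (chr1:71102973-71103222, minus) and Chek2 (chr5:110839733-110839982, plus) follow. The form of Clspn begins 22 bases after the start counted as base 1, and only 30 bases around it are shown (chr4:126556990-126557019, plus).
Brca2: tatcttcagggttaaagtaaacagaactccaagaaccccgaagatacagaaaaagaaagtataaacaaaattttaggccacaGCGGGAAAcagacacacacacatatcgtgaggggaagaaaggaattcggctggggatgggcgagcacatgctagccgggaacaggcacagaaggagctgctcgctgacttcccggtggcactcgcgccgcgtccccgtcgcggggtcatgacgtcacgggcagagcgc
Topbp1: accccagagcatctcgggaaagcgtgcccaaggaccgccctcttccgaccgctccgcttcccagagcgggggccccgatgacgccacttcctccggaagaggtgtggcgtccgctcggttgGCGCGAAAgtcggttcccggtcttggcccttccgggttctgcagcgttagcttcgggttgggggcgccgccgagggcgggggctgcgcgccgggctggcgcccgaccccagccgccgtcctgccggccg
Cdc25a: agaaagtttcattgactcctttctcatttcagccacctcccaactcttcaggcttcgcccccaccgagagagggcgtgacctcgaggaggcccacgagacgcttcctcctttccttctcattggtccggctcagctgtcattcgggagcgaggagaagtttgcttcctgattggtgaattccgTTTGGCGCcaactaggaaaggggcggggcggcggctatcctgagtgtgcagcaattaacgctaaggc
Bard1: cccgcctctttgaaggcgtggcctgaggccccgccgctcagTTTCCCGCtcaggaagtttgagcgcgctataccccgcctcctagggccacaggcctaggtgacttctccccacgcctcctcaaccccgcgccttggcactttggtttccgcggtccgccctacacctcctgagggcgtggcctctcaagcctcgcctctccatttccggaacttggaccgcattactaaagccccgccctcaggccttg
Chek2: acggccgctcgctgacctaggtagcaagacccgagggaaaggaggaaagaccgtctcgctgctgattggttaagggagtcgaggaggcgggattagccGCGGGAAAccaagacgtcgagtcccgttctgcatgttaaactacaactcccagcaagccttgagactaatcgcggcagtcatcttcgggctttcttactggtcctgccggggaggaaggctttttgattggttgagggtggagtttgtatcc
Clspn: accgcgtctggGCGCGAAAgctcgaacttc
In Brca2, Topbp1 and Chek2 the capitals begin 168, 129 and 152 bases before the start and read as the reverse complement. In Cdc25a and Bard1 they begin 67 and 209 bases before it and read forward. The form in Brca2 and the one in Chek2 have the same 8 letters. Brca2 was 2.67-fold lower and Chek2 was level.

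Other genes of the same pathways, from a list of 91 current and older symbols of which 81 were in the table, were also lower more often than higher. Of the 80 measured, 10 (12.5%) were at least 2-fold lower and 1 (1.25%) at least 2-fold higher, beside 8.37% and 7.9% of all measured genes. The median log2 ratio of the 80 genes was -0.25. This list, too, was chosen with earlier results of these data known. Rnf168 and Rnf8, ubiquitin ligases that mark chromatin around breaks, stood at 12.6 FPKM in the wild type against 2.99 in the resistant library, and at 11.2 against 4.09. The value of Rnf8 is uncertain, because its locus spans 198 kb and is shared with 4 other measured rows. Gen1, a Holliday junction resolvase, stood at 10.6 against 2.83 FPKM. Slx4, the scaffold for the other resolving nucleases, stood at 14.0 against 6.34 FPKM.

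On the Fanconi side of that list, the core gene Fancf stood at 3.78 FPKM in the wild type against 1.10 in the resistant library. Its value is also uncertain, because its locus is shared with another measured row. The ubiquitin ligase gene Rfwd3 stood at 24.3 against 10.8 FPKM, and the crosslink nuclease gene Dclre1a at 8.55 against 3.69 FPKM. Ube2t, the ubiquitin-conjugating enzyme for FANCD2 and FANCI, was the 1 gene at least 2-fold higher, at 8.86 FPKM in wild type and 19.5 FPKM in resistant cells.

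Many of the 37 genes are transcribed mainly in dividing cells, so 30 cell cycle and proliferation genes were measured beside them. Of these, 4 (13.3%) were at least 2-fold lower and none at least 2-fold higher, beside 8.37% and 7.9% of all measured genes. The median of the 30 genes was -0.20. The lower ones were Ccne2, a cyclin of S-phase entry (17.4 FPKM in the wild type against 1.5 in the resistant library), E2f2 (5.23 against 1.25), E2f8 (18.5 against 6.53) and Uhrf1, which maintains DNA methylation at the fork (104.0 against 38.8). Ccne2 and E2f8 each share their locus with another measured row, so their values are less certain.

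When that list was divided after its values were seen, the 19 genes of G1 and S phase had a median of -0.50 and held all 4 lower genes. The 11 genes of G2 and mitosis, with Mki67 counted among them, had a median of 0.02, from -0.41 to 0.45, and none differed by 2-fold. Mki67, a marker of cycling cells, stood at 57.3 FPKM in wild type and 58.6 FPKM in resistant cells. The part of cell cycle stage in the lower levels of the 37 genes was not tested.

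**Figure D4:**
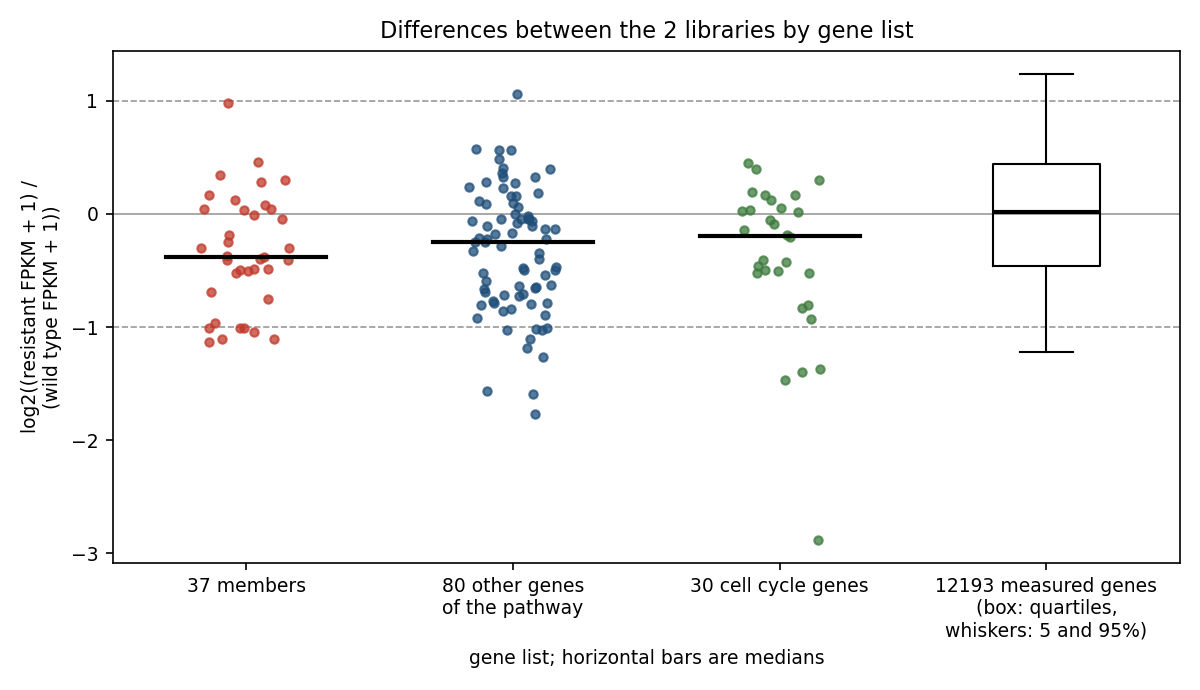
Log2 ratio (pseudocount 1) of each of the 37 genes ("members"), of 80 other genes of the same pathways and of 30 cell cycle genes, with thick bars at the medians of -0.38, -0.25 and -0.20. The box gives the quartiles of all 12193 measured genes and their median of 0.02, and its whiskers the 5 and 95 percentiles. The 3 lists reach further below the 2-fold line than above it.

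The authors' deposited table gives a p-value and a q-value for all 37 genes and called none of them, beside 0.404% of the rows it tested. With 1 library per group these values rest on no replicate cultures, so the absence of calls does not show that the genes did not differ.

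As a check of the cell type, the epithelial keratin genes Krt8, Krt18 and Krt19 stood between 1123 and 1864 FPKM in both libraries and Cdh1 at 206 and 164 FPKM, while Krt7 stood at 7.56 and 32.6 FPKM and Epcam at 0.21 and 0.10 FPKM. All 7 fibroblast, 4 islet and 3 endothelial markers were under 1 FPKM. Of 6 leukocyte markers, Cd68 (1.17 FPKM in wild type and 5.48 in resistant cells) and Lyz2 (0.36 and 1.53 FPKM) reached 1 FPKM in either library. Ptprc was listed at 0 in wild type and stood at 0.23 FPKM in resistant cells. Adgre1 went the other way, at 0.05 FPKM in wild type and listed at 0 in resistant cells. The list summed to 1.59 FPKM in wild type and 7.24 in resistant cells, with 2 of the 6 listed at 0 in both. Its part in the differences of the 37 genes was not tested. Of 5 acinar markers, Cela1 alone reached it.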

How the data were processed

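RNA of 1 wild type and 1 gemcitabine-resistant KPC2 library was compared. HISAT2, StringTie and the mouse build GRCm38 are listed without roles, per the submitters' processing notes. The deposited value columns name no unit and were taken to be FPKM computed by the authors, since they are fractional, differ in total between columns and step with transcript length. Whole-fragment steps (tolerance 0.1) held for 94.0% and 94.4% of low values, once 160 bases were taken off transcript length. The authors also deposited log2 fold changes, a test statistic (a score), p-values and q-values, per the file headers.

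Rows of 1 symbol were summed. The 13 rows that the deposited table marks as failed or too deep were left out. No test was possible with 1 library per group. The alternatives were pseudocounts of 0.1 and 5, no level filter or one of 5 FPKM, 2 rescalings, the highest row per symbol, leaving out genes with a shared locus, a correction by deciles of transcript length, and a 4-fold line. The genes and lists were chosen with earlier results of these data known. All 37 genes are named, as are up to 8 genes past the 2-fold line in each direction of the other 2 lists. 1 gene that this rule takes is not reported here. Steps were tested on simulated data. The software was matplotlib 3.10.9, scipy 1.17.1, pandas 2.3.3 and numpy 2.4.6 under Python 3.11.15.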

Additional observations from a re-analysis of the deposited data

How the results depend on the processing

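The count of 7 lower genes among the 37 lay between 6 and 8 under all alternatives other than a pseudocount of 5 and a 4-fold line, which each gave 0. At the 4-fold line 1.05% of all measured genes were lower and 1.80% higher, so a count of 0 among 37 genes is close to the background. The count of genes at least 2-fold higher was 0 under all of them except a pseudocount of 0.1, which gave 1. The median of the 37 genes was -0.18 at a pseudocount of 5, which shrinks every ratio by construction, and ranged from -0.47 to -0.30 under the others. Of 314 values of single genes under alternatives, 282 stayed within their counting interval and 5 changed sign, none of them of a gene at least 2-fold lower. Part of these values could not move. With 1 row per gene, other level filters, the highest row per symbol and leaving out shared loci return the same ratio. A pseudocount cannot change a sign, and the 2 rescalings multiplied resistant values by only 0.988 and 0.940. A sign change of a lower gene was therefore hardly possible here.

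Among the 80 other genes of the pathway, the lower count was 17 at a pseudocount of 0.1, beside 12.7% of all measured genes. It was 2 at a pseudocount of 5, beside 2.44%, and 0 at the 4-fold line, beside 1.05%. Without genes that share a locus (54 genes measured) it was 6, beside 8.36%. The higher count there was 0 at a pseudocount of 5, at the same upper quartile and at the 4-fold line, beside 3.51%, 6.71% and 1.80%. Among the cell cycle genes, the lower count was 2 without genes that share a locus (23 genes measured), beside 8.36% of all measured genes. It was 1 at the 4-fold line, beside 1.05%. The median of the cell cycle genes was -0.28 at the same upper quartile, beside -0.06 over all measured genes. Where no construction is named, the cause was not tested. No paired analysis was possible because each group has 1 library.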
